A study of Homo sapiens with 17 samples.

Results

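The comparison sets MDA-MB-231 cells that had been with TRAIL for 6 h against the same line at 0 h, across all genes. It uses 6 of the 17 libraries of a time course, 3 at 6 h and 3 at 0 h. MDA-MB-231 is an established human line from a triple-negative breast cancer, labelled as mesenchymal and basal B, and its submitters describe it as sensitive to TRAIL. The ligand was given at 45 nM, a dose the submitters call suboptimal and chose so that living cells would be measured. All libraries, those at 0 h included, carry the same treatment label, and 0 libraries were kept without TRAIL for 6 h, so that TRAIL and time in culture cannot be told apart here. Nothing in the labels says that replicates came from separate cultures, and the p-values then measure the spread between these samples, which may be technical.

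TRAIL is a ligand of the TNF family. When it binds the death receptors encoded by TNFRSF10A and TNFRSF10B, a complex with the adaptor FADD and caspase-8 can start apoptosis, which FLIP (encoded by CFLAR) and the inhibitor of apoptosis proteins restrain. The same receptors can also engage the IκB kinases and the NF-κB transcription factors, whose targets include cytokines, anti-apoptotic genes and the pathway's own inhibitors, so that the response limits itself.

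The libraries held between 15019649 and 18458203 counts each at 6 h and between 15889140 and 16396843 at 0 h. Levels are given in CPM, counts scaled to a common library total with TMM factors. The labelled cell type was checked against its markers. VIM (3357 ± 108 CPM at 0 h and 3205 ± 156 at 6 h, SD, n = 3), CD44, AXL, ZEB1, CAV1 and MSN were present in each of the 6 libraries. ESR1 and PGR stood at or below 0.124 CPM, while ERBB2, the other receptor gene of the triple-negative definition, was at 64.5 ± 3.12 CPM at 0 h and 61.4 ± 3.50 at 6 h. KRT8 (1041 ± 10.3 and 930.4 ± 20.9 CPM) and KRT18 were also present. EPCAM (17.8 ± 1.37 and 13.7 ± 0.746 CPM) and GATA3 (10.5 ± 1.24 and 8.61 ± 1.58 CPM) were lower but present, while CDH1 did not exceed 1.01 CPM. The leukocyte marker PTPRC was at most 0.133 CPM, and CD3E and the fibroblast marker DCN were at 0 in the 6 libraries. Of the other cells' markers, COL1A1 was at 9.05 ± 1.28 CPM at 0 h and 13.1 ± 0.889 at 6 h. The fibroblast marker PDGFRB was at 3.36 ± 0.973 and 2.10 ± 0.153 CPM. The leukocyte marker CD14 was at 1.43 ± 0.107 and 1.01 ± 0.314 CPM, and the endothelial marker PECAM1 at 1.43 ± 0.449 and 1.04 ± 0.228 CPM. LYZ, COL3A1 and CDH5 did not exceed 0.373 CPM.

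Of 15365 genes tested, 4627 (30.1%) were called, that is, had an adjusted p below 0.05 by edgeR's quasi-likelihood test with Benjamini-Hochberg adjustment. There were 2602 higher genes (16.9%) and 2025 lower genes (13.2%), and the median absolute log2 fold change among the called genes was 0.37. Upper-quartile scaling turned the balance, with 1888 higher and 3047 lower, so that 38.3% of the calls were higher against 56.2% with TMM. A change of at least 2-fold was called for 63 higher genes (0.410% of those tested) and 161 lower genes (1.05%). Among the genes called higher by 2-fold, 45 were protein coding and 22 reached 2 in average log2 CPM. Among the genes called lower by 2-fold, 96 were protein coding and 19 had that level. The groups did not overlap for 3491 genes that were higher at 6 h in every library (22.7%) and for 3289 that were lower (21.4%), together 44.1%.

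**Figure D1:**
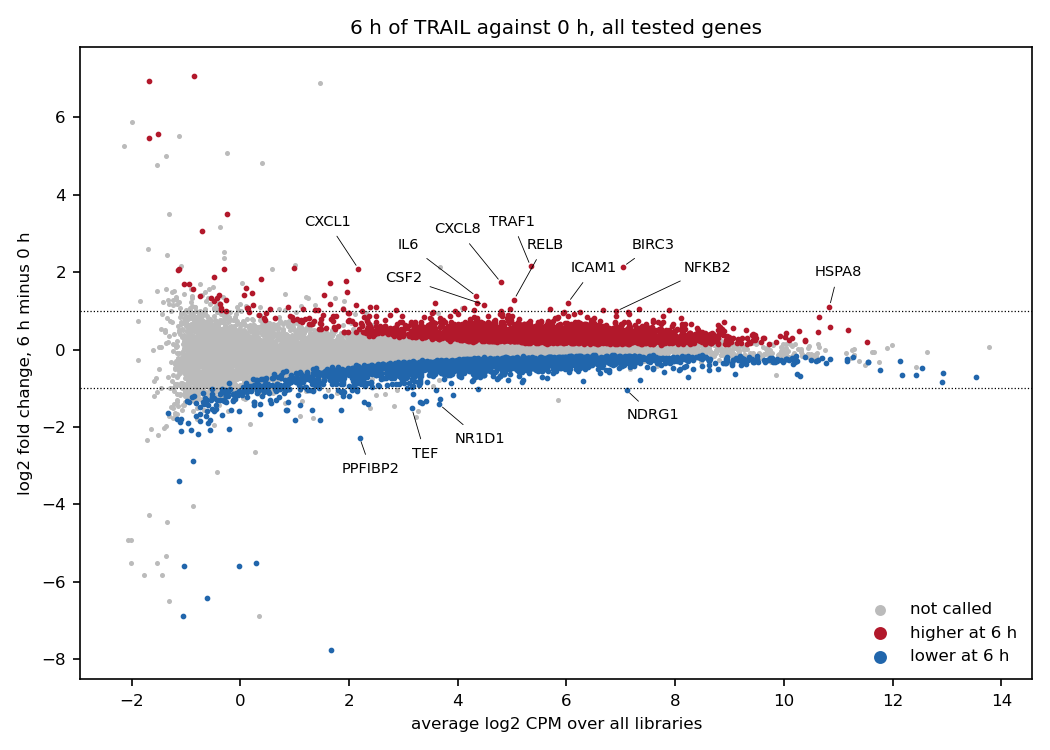
Each point is 1 of the 15365 genes tested, with its average log2 CPM over all libraries on the x axis and its log2 fold change (6 h minus 0 h) on the y axis; red points were called higher and blue points lower, and the dotted lines mark 2-fold. TRAF1 (2.15) and BIRC3 (2.14) lie above the other genes of their level, PPFIBP2 (-2.28) below, and the 13 called genes beyond 3 log2 units had at most 0.166 CPM on average in the lower group.

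The 6 libraries differed in ways other than the time label. Libraries 2 and 3 at 6 h (numbered as in their labels) were closer to each other than any other pair, with a chi-square of 1.55 per gene against 5.11 to 14.6 within the other pairs of a group. That difference was above sampling noise. This cannot tell whether the 2 libraries came from separate cultures, which was not tested, and both were kept. With their mean counted as 1 library, 1668 genes were called higher and 1041 lower, with 58.5% of the 4627 calls retained. Leaving out 0 h library 1 gave 1744 and 1141, leaving out 6 h library 2 gave 1716 and 1143, and leaving out 6 h library 3 gave 1635 and 1028. The counts of gene lists given below for these settings stand beside these lower totals. Transcript length moved with the comparison. With the genes in 5 bins by transcript length, the longest (median 3180 bases) had 781 called higher and 232 lower, with a median log2 fold change of 0.09, while the medians of the other bins lay between -0.06 and -0.02. With offsets for length and GC content in the fit, 89.4% of the 4627 calls were retained. The median of the longest bin was then 0.01, a value that the offsets make small by construction. The share of counts from the mitochondrial genome was 6.75% ± 1.46 at 0 h and 4.49% ± 0.830 at 6 h (SD, n = 3).

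**Figure D2:**
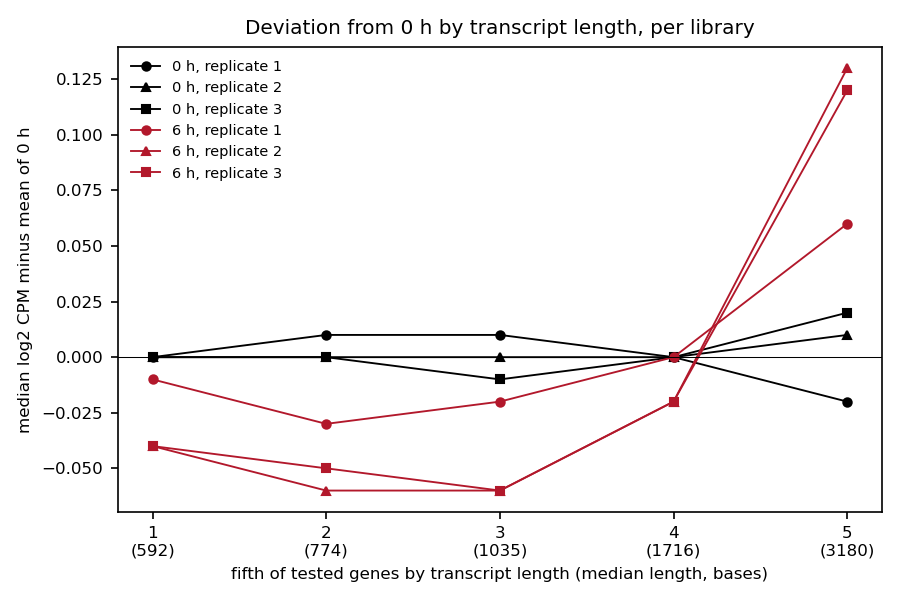
The x axis gives 5 bins of the tested genes by transcript length (median length in bases below each), and the y axis the median of log2 CPM minus the mean of the 0 h libraries, 1 line per library (black 0 h, red 6 h). In the longest bin 6 h libraries 2 and 3 sit at 0.13 and 0.12 and 6 h library 1 at 0.06, while the 0 h libraries lie between -0.02 and 0.02.

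The promoters of the leading genes were searched for the κB consensus GGGRNNYYCC, the binding motif of NF-κB dimers. R stands for A or G, Y for C or T and N for any base. Both strands were searched, from 250 bases before to 50 after the RefSeq start site. Overlapping matches were merged. A match stood in 13.1% of the 10563 tested genes with a promoter entry and in 12 of 37 (32.4%) of those called higher by 2-fold. It was found in 3 of 84 (3.57%) of those called lower by 2-fold, and in 14.5% of all genes called higher. The κB motif was not alone in this. The AP-1 motif TGANTCA, searched in the same way, stood in 5 of 37 (13.5%) of the genes called higher by 2-fold. It stood in 8 of 84 (9.52%) of those called lower by 2-fold and in 4.84% of all tested genes with an entry. These windows come from GRCh38.p14 (RefSeq), run 5′ to 3′ on the gene's strand and carry the κB matches in capitals. BIRC3, CXCL1 and IL6 are shown because they held a match and were among the 12 genes with the highest log2 fold change that reached 2 in average log2 CPM and did not overlap between groups. They lie at chr11:102317245-102317398 (plus strand), chr4:73869274-73869364 (plus) and chr7:22727118-22727145 (plus). NFKB1 at chr4:102501301-102501328 (plus) and NFKBIA at chr14:35404781-35404870 (minus) are shown as a subunit and an inhibitor of NF-κB, and were chosen after their values were seen.
BIRC3: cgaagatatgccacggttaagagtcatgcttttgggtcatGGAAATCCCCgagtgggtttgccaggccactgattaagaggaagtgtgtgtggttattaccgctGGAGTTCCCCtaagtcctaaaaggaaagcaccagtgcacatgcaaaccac
CXCL1: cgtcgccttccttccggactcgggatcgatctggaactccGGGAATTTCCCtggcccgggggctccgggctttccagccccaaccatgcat
IL6: atcaaatgtGGGATTTTCCcatgagtct
NFKB1: gacgtcagtGGGAATTTCCagccaggaa
NFKBIA: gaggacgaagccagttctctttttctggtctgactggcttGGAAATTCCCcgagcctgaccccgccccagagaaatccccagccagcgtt
The CXCL1 match ends 68 bases before the start site, and those of IL6, NFKB1 and NFKBIA end 63, 39 and 71 bases before it. The window of TRAF1 held no exact match to the κB consensus, nor did those of CXCL8, IRAK2, ICAM1, POU2F2, CSF2, HSPA8 and NFKB2. A site that departs from the consensus at any base was not counted, so these promoters may still hold κB sites. A match is a description of the sequence, and binding was not measured.

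All 5 NF-κB subunit genes were called higher at 6 h, with a median log2 fold change of 0.99 against -0.022 over all genes tested. RELB, the partner of p52 in the non-canonical pathway, stood at 18.2, 20.6 and 21.0 CPM in the 0 h libraries and at 48.1, 49.4 and 48.0 CPM in the 6 h libraries. Its log2 fold change was 1.28 (SE 0.0836, adjusted p 5.4e-09), and the 6 h values were all more than 2-fold above the highest 0 h value. NFKB1, which encodes the p105 precursor of p50, stood at 33.2, 40.7 and 38.8 CPM at 0 h and at 69.4, 77.3 and 84.2 CPM at 6 h (1.04, SE 0.0944, adjusted p 3.7e-07). The groups did not overlap, and 6 h library 1 was the lowest of its group. NFKB2, which encodes the p100 precursor of p52, stood at 82.7, 79.8 and 78.4 CPM at 0 h and at 165, 157 and 155 CPM at 6 h (0.99, SE 0.0672, adjusted p 6.9e-09). RELA, the canonical transactivating subunit, was higher by 0.35 (SE 0.0581, adjusted p 2.3e-04). REL was low, at 3.73, 4.86 and 3.42 CPM at 0 h and 6.95, 6.77 and 5.77 CPM at 6 h. Its call (0.69, adjusted p 0.0318) was lost in 5 of 20 alternative settings, for example leaving out 0 h library 1 (0.64, adjusted p 0.103), and its counts were fractional (estimates that are not whole numbers, as when a fragment is shared between genes) in 5 of the 6 libraries.

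The inhibitors of NF-κB were also higher, with 5 of 5 tested IκB family genes called and a median of 0.49. NFKBIA, which encodes IκBα, stood at 42.6, 44.2 and 46.0 CPM at 0 h and at 75.0, 66.1 and 70.0 CPM at 6 h (0.67, SE 0.0632, adjusted p 5.6e-07). NFKBIE, which encodes IκBε, was at 50.3, 44.7 and 45.9 CPM at 0 h and at 97.3, 91.7 and 86.8 CPM at 6 h (0.97, SE 0.0643, adjusted p 5.7e-09). In both genes every 6 h library was above every 0 h library. BCL3 and NFKBIZ, nuclear members that can act as co-activators, were higher by 0.49 (adjusted p 0.00325) and 0.41 (adjusted p 0.00392). NFKBIB, at 0.25 (adjusted p 0.0478), lost its call in 11 of 20 settings.

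The 6 h libraries were also compared with those at 3 h and at 12 h. All 3 comparisons share the 6 h libraries, so their values are set side by side only. Against 3 h, 22.9% of the tested genes were called higher at 6 h and 20.3% lower. From 6 h to 12 h, 8.70% were called higher and 11.9% lower. Among the subunits, NFKB1 (0.43, adjusted p 0.00102) and RELA (0.26, adjusted p 0.00141) were higher at 6 h than at 3 h, while RELB gave 0.09 (adjusted p 0.384) and NFKB2 -0.03 (adjusted p 0.758). All 5 subunits were lower at 12 h than at 6 h, with a median of -0.68. In the IκB family, 4 of the 5 tested were called lower at 6 h than at 3 h. They were NFKBIA (-0.72, adjusted p 1.9e-07), BCL3 (-0.47), NFKBIE (-0.32) and NFKBIZ (-0.32).

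**Figure D3:**
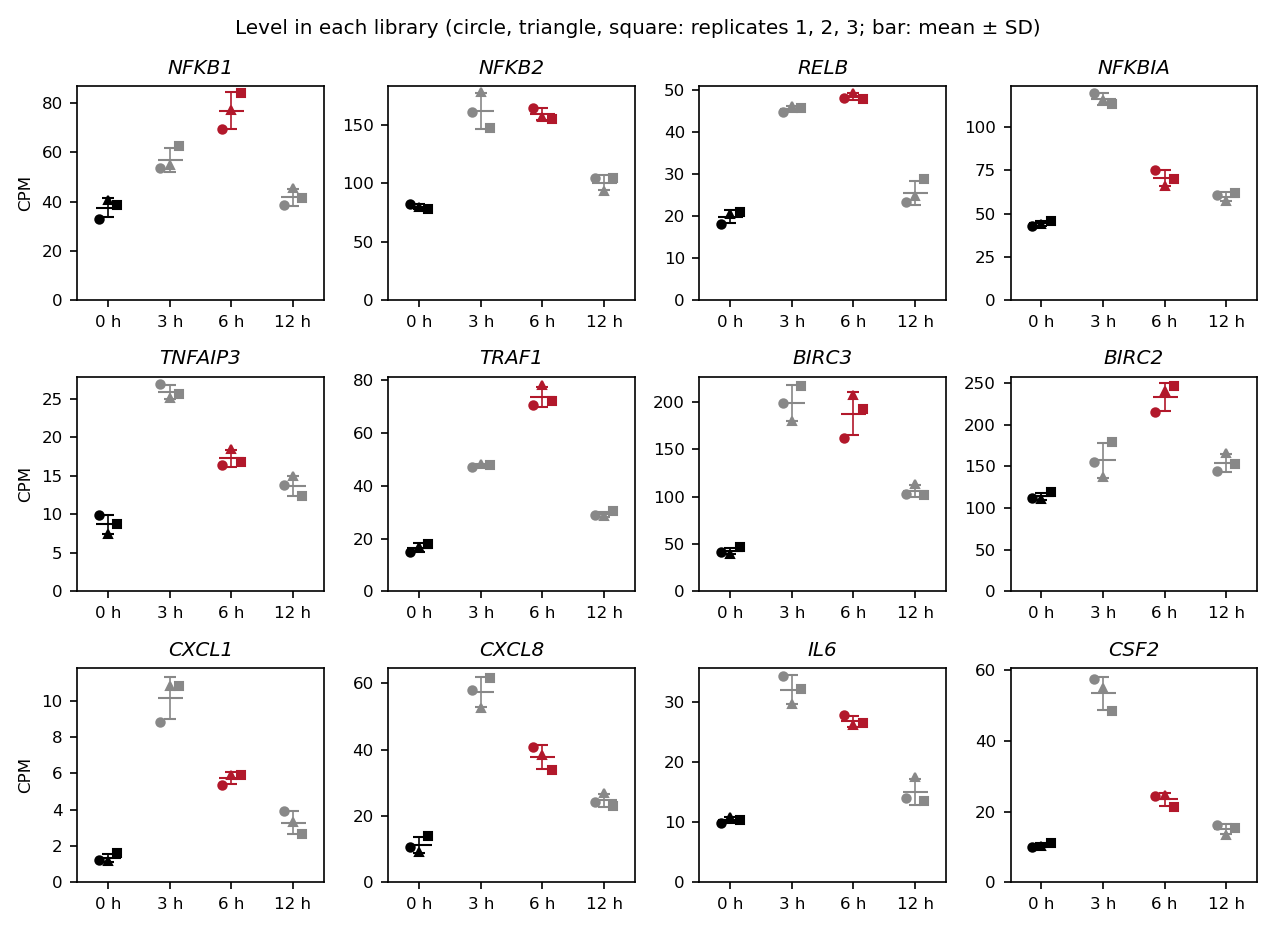
Each panel gives the level of 1 gene in CPM (y axis, from 0) in each library at 0, 3, 6 and 12 h (x axis), with the mean and SD of the 3 libraries as a bar. The red 6 h values lie above all black 0 h values in each panel; NFKB1, TRAF1 and BIRC2 are higher at 6 h than at 3 h, while NFKBIA, TNFAIP3, CXCL1, CXCL8 and CSF2 are lower at 6 h than at 3 h.

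Among the 25 kinases, adaptors and ubiquitin editors of the pathway, 14 were called higher and 0 lower, with a median of 0.24. The count was 9 with 6 h libraries 2 and 3 averaged and 9 leaving out 6 h library 2. The leading gene was TRAF1 (ENSG00000056558, chr9:120902393-120929173, minus strand), an adaptor that binds TRAF2 and the cIAP proteins. It stood at 14.9, 16.8 and 18.1 CPM at 0 h and at 70.7, 78.0 and 72.1 CPM at 6 h, a 4.44-fold difference (log2 2.15, SE 0.0752, adjusted p 2.1e-13). TRAF1 was higher at 6 h than at 3 h by 0.62 (adjusted p 5.3e-06) and fell by 1.33 from 6 h to 12 h (adjusted p 2.0e-10). TNFAIP3, which encodes the ubiquitin editor A20, stood at 9.89, 7.48 and 8.77 CPM at 0 h and at 16.4, 18.5 and 16.8 CPM at 6 h (0.98, adjusted p 1.3e-06). A20 mRNA had passed a higher level earlier, since the 6 h value was below the 3 h value by 0.59 on the log2 scale (adjusted p 9.9e-05).

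Other negative regulators were higher too. TNIP1, which binds A20, rose from 138 ± 6.79 to 219 ± 5.77 CPM (0.66, adjusted p 3.3e-08, SD, n = 3). CYLD, a deubiquitinase, was higher by 0.69 (adjusted p 3.5e-05), TRAF3, which keeps the kinase NIK low, by 0.71 (adjusted p 9.7e-07) and the linear deubiquitinase gene OTULIN by 0.45 (adjusted p 1.8e-04). All 3 did not overlap between the groups. The kinase genes IKBKB (0.01, adjusted p 0.929) and IKBKG (-0.02, adjusted p 0.852, fractional counts in 5 of 6 libraries), which encode IKKβ and the scaffold NEMO, gave values near 0. CHUK, which encodes IKKα, was called higher (0.51, adjusted p 0.00533). MAP3K14, which encodes NIK, was at 0.22 (adjusted p 0.0232), with a call lost in 6 of 20 settings and fractional counts in 6 of 6 libraries.

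Among 23 tested effector targets of NF-κB, 12 were called higher and 5 lower, with a median of 0.26. The lower calls numbered between 1 and 5 in the 20 alternative settings, with 1 when 6 h libraries 2 and 3 were averaged, 1 leaving out 6 h library 3 and 2 leaving out 0 h library 1, 0 h library 3 or 6 h library 2. BIRC3, which encodes cIAP2, led them and is described with the inhibitors of apoptosis. ICAM1, a ligand of leukocyte integrins, stood at 34.3, 40.4 and 40.6 CPM at 0 h and at 85.3, 88.8 and 92.1 CPM at 6 h (1.21, SE 0.0671, adjusted p 4.8e-10). Its counts were fractional in 6 of 6 libraries. PTGS2, which encodes the prostaglandin synthase COX-2, was low but separated, at 2.05, 2.37 and 1.87 CPM at 0 h and 5.56, 5.84 and 6.21 CPM at 6 h (1.48, SE 0.265, adjusted p 5.7e-04). CD83 was higher by 0.81 (adjusted p 1.5e-06). On the other side, ELF3, an epithelial transcription factor, was called lower (-0.88, adjusted p 0.0048) and had at most 3.28 ± 0.253 CPM. The other named lower targets, LCN2, SAA1 and NINJ1, lost their calls in 11, 5 and 9 of 20 settings.

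Cytokine and chemokine genes were higher as a group. Of 25 tested, 15 were called higher and 0 lower, and their median log2 fold change was 1.00. CXCL1 (ENSG00000163739, chr4:73869393-73871242, plus strand), a chemokine for neutrophils, stood at 1.24, 1.18 and 1.62 CPM at 0 h and at 5.37, 5.90 and 5.94 CPM at 6 h, a 4.24-fold difference (2.08, SE 0.194, adjusted p 4.8e-07). CXCL8, which encodes interleukin-8 and lies in the same cluster on chromosome 4, was at 10.6, 9.28 and 14.1 CPM at 0 h and at 40.9, 38.4 and 33.8 CPM at 6 h (1.73, SE 0.116, adjusted p 6.1e-09). Both genes were clear of their 0 h values in every library. CXCL3 was higher by 1.41 (adjusted p 8.3e-04) and CXCL2 by 1.01 (adjusted p 6.1e-05).

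IL6 stood at 9.83, 10.9 and 10.3 CPM at 0 h and at 27.9, 26.1 and 26.5 CPM at 6 h (1.37, SE 0.103, adjusted p 2.7e-08). The growth factor gene CSF2, which encodes GM-CSF, was at 10.0, 10.3 and 11.2 CPM at 0 h and at 24.5, 24.5 and 21.4 CPM at 6 h (1.15, SE 0.127, adjusted p 3.7e-06). Both groups of 3 were tight and well apart. IL11 was higher by 1.00 (adjusted p 5.9e-08), LIF, a cytokine of the same receptor family, by 0.57 (adjusted p 5.9e-06) and CSF1, which supports macrophages, by 0.30 (adjusted p 5.5e-04). TNF had 0 counts in each 0 h library and 8, 5 and 5 counts at 6 h. The 18 counts of the 6 h group were 5.86-fold above a floor of 3 counts over the 0 h group, scaled by library totals. That floor covers counting error at 0 h only, not the error of the 18 counts. LTB (1.83, adjusted p 5.1e-04) and IL1A (1.57, adjusted p 7.5e-04) were called from levels of at most 2.02 CPM. The members not called included IL32 (0.01, adjusted p 0.958), IL18 (-0.27, adjusted p 0.0655), CXCL16 (-0.11, adjusted p 0.55) and CCL5 (0.16, adjusted p 0.802).

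Set beside the neighbouring times, 0 of the 25 cytokine genes were called higher at 6 h than at 3 h and 10 were called lower, with a median of -0.29. CSF2 gave -1.19 (adjusted p 7.4e-07), CXCL1 -0.82 (adjusted p 3.1e-04) and CXCL8 -0.61 (adjusted p 1.7e-04). From 6 h to 12 h, 7 were called lower, IL6 among them (-0.83, adjusted p 9.1e-06), and 3 higher. CXCL5, CXCL6, CCL22 and TSLP had 0 counts in the 6 libraries, and CCL2 and CCL20 had at most 5 and 4 counts in any of them, so none of these 6 genes was tested.

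Of the 10 genes of the TRAIL receptors and the death-inducing complex, 4 were called higher and 0 lower, with a median of 0.24. TNFRSF10B, which encodes the death receptor DR5, stood at 116, 129 and 119 CPM at 0 h and at 157, 159.5 and 167 CPM at 6 h (0.41, SE 0.0569, adjusted p 4.3e-05). TNFRSF10A, which encodes DR4, stood at 23.1, 23.8 and 25.5 CPM at 0 h and at 33.0, 34.8 and 37.2 CPM at 6 h (0.54, SE 0.0712, adjusted p 3.0e-05), with fractional counts in 6 of 6 libraries. Neither receptor overlapped between the groups. The decoy receptor gene TNFRSF10D was higher by 0.32 (adjusted p 0.00535), a call lost leaving out 6 h library 3 (0.24, adjusted p 0.0509). CFLAR was at 57.4, 61.2 and 64.6 CPM at 0 h and at 87.2, 85.5 and 84.4 CPM at 6 h (0.49, SE 0.0566, adjusted p 6.3e-06), also with divided counts in 6 of 6 libraries. The adaptor gene FADD gave -0.00 (SE 0.0793, adjusted p 0.971), CASP8 -0.16 (adjusted p 0.0997), CASP10 -0.34 (adjusted p 0.113) and the ligand's own gene TNFSF10 -0.11 (adjusted p 0.476).

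The inhibitors of apoptosis were higher in 5 of 6 genes tested, with 0 lower and a median of 0.41. BIRC3 (ENSG00000023445, chr11:102317450-102339403, plus strand) stood at 41.3, 39.8 and 46.5 CPM at 0 h and at 162, 207 and 193 CPM at 6 h, a 4.40-fold difference (2.14, SE 0.0949, adjusted p 2.7e-11). Its neighbour BIRC2 (chr11:102347211-102378670, plus strand), which encodes cIAP1, was at 112, 111 and 119 CPM at 0 h and at 215, 240.2 and 246 CPM at 6 h (1.04, SE 0.0842, adjusted p 9.0e-08). 6 h library 1 was the lowest of its group for both genes, and still above all 0 h values. Between 3 h and 6 h the neighbours gave different values, -0.08 for BIRC3 (adjusted p 0.462) and 0.57 for BIRC2 (adjusted p 7.4e-05), a difference between genes that was not tested. XIAP, which binds and blocks caspases directly, was higher by 0.42 (adjusted p 0.00771). Of the 5 calls, 3 remained leaving out 0 h library 1 and 3 leaving out 6 h library 3. BIRC6 and BIRC5 had lost theirs in both cases.

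In the BCL2 family with the apoptosome and the executioner caspases, 8 of 21 genes were called higher and 3 lower, with a median of 0.12. The counts were 4 and 1 with 6 h libraries 2 and 3 averaged and 5 and 1 leaving out 6 h library 2, and 1 gene was also called lower leaving out 0 h library 2, 0 h library 3 or 6 h library 3. MCL1, an anti-apoptotic member, stood at 297, 298 and 294 CPM at 0 h and at 399, 421 and 414 CPM at 6 h (0.48, SE 0.0503, adjusted p 2.2e-06). BAK1, a pore-forming member that promotes death, was higher by 0.43 (adjusted p 1.2e-04) and APAF1, the scaffold of the apoptosome, by 0.62 (adjusted p 0.00172). CASP6 was lower (-0.46, adjusted p 7.6e-04). Genes on both sides of the death decision were among those called higher. BCL2L1, which encodes BCL-XL, gave -0.06 (adjusted p 0.407), BAX -0.11 (adjusted p 0.243) and BBC3 0.12 (adjusted p 0.602).

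Genes linked to immune suppression were split, with 6 of 16 called higher, 5 lower and a median of 0.02 that was -0.05 with upper-quartile scaling. With 0 h library 1 left out, 3 were called higher. The lower calls numbered 3 with 6 h libraries 2 and 3 averaged, and 3 leaving out 0 h library 2, 6 h library 2 or 6 h library 3. CD274, which encodes PD-L1, stood at 25.9, 28.6 and 30.9 CPM at 0 h and at 44.9, 47.0 and 50.2 CPM at 6 h (0.74, SE 0.0825, adjusted p 4.3e-06). TGFB2 was higher by 0.62 (adjusted p 0.00105, fractional counts in 6 of 6 libraries). PTGES, which encodes the prostaglandin E synthase that acts after COX-2, went the other way from PTGS2, at 36.5, 35.2 and 36.0 CPM at 0 h and 23.3, 22.0 and 17.7 CPM at 6 h (-0.78, SE 0.0908, adjusted p 6.8e-06). VSIR, a checkpoint ligand, was lower by the same measure (-0.78, adjusted p 2.2e-04), as was LGALS3, which encodes galectin-3 (-0.44, adjusted p 4.5e-04). VTCN1 and IL10 had 0 counts in the 6 libraries, and IDO1, HLA-G and ARG1 at most 6, 4 and 1 in any.

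Of 30 interferon-stimulated genes tested, 15 were called lower and 4 higher, with a median of -0.27. With 6 h libraries 2 and 3 averaged the counts were 8 lower and 2 higher, and leaving out 6 h library 3 they were 7 and 2. IFIT1, which binds viral RNA, stood at 49.5, 43.8 and 49.0 CPM at 0 h and at 28.4, 27.3 and 29.4 CPM at 6 h (-0.74, SE 0.0708, adjusted p 6.3e-07). GBP2, a guanylate-binding protein gene, was at 37.5, 36.7 and 38.8 CPM at 0 h and 25.2, 22.5 and 22.8 CPM at 6 h (-0.68, SE 0.0861, adjusted p 1.8e-05). Both were below all their 0 h values in every 6 h library, and GBP1 (0.27, adjusted p 0.00383) and GBP3 (0.37, adjusted p 7.4e-04) were called in the other direction. From 6 h to 12 h, 14 of the 30 were called higher and 0 lower, with IFIT1 at 0.93 (adjusted p 4.2e-08). Of 15 genes of MHC class I presentation, 3 were called higher and 2 lower, with a median of -0.05. The share called, 33.3%, was near the 30.1% of all tested genes. The higher ones, which trim and carry peptides, were TAP1 (0.45, adjusted p 1.2e-05), TAP2 (0.35) and ERAP1 (0.53). The other 2 calls, PSME1 and PSMB10, were lower and were lost in 5 of 20 settings each. Counts of TAP1, TAP2, ERAP1 and PSMB10 were fractional in 6 of 6 libraries.

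Immediate-early and AP-1 genes were called higher in 9 of 18 cases and lower in 0, with a median of 0.28. KLF6, a zinc finger transcription factor, rose from 175 ± 5.35 to 286 ± 6.28 CPM (0.71, adjusted p 3.8e-08, SD, n = 3). JUNB stood at 29.2, 29.5 and 29.5 CPM at 0 h and at 51.8, 48.8 and 45.2 CPM at 6 h (0.72, SE 0.101, adjusted p 5.2e-05), below its 3 h level by 1.03 on the log2 scale (adjusted p 7.3e-07). Feedback regulators of ERK and EGF receptor ligands gave 10 higher and 2 lower of 18. DUSP1, a phosphatase of MAP kinases, stood at 36.0, 36.1 and 36.4 CPM at 0 h and at 62.2, 57.1 and 59.4 CPM at 6 h (0.72, SE 0.0643, adjusted p 2.7e-07). In contrast to JUNB, it was higher at 6 h than at 3 h (0.90, adjusted p 3.9e-08). SPRY1, an inhibitor of receptor tyrosine kinase signalling, was among those lower, at 16.1, 15.1 and 14.0 CPM at 0 h and 7.08, 7.50 and 7.23 CPM at 6 h (-1.05, adjusted p 6.3e-07). Its relative SPRY4 was higher by 0.50 (adjusted p 2.0e-05).

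Regulators of the decay of short-lived mRNAs, such as those of cytokines, had 7 of 10 genes called higher and 0 lower, with a median of 0.47. ZFP36, which encodes tristetraprolin, was higher by 0.56 (adjusted p 3.9e-05), ZFP36L1 by 0.54 (adjusted p 1.3e-05) and the RNase gene ZC3H12A (Regnase-1) by 0.66 (adjusted p 0.00138). Each was clear of its 0 h values at 6 h.

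Cell cycle genes went in opposite directions by phase. Of 42 genes of DNA replication and S phase, 23 were called lower and 1 higher (median -0.19). Of 38 genes of mitosis and G2/M, 24 were called higher and 0 lower (median 0.26). PCNA, the sliding clamp of the replication fork, stood at 336, 309 and 327 CPM at 0 h and at 237, 215 and 217 CPM at 6 h (-0.54, SE 0.0606, adjusted p 4.3e-06). E2F1, a transcription factor of S phase entry, gave -0.42 (adjusted p 7.3e-05), and POLA2, a subunit of DNA polymerase α, gave -0.70 (adjusted p 7.7e-05) with fractional counts in 6 of 6 libraries. MKI67, which encodes the proliferation marker Ki-67, stood at 356, 401 and 383 CPM at 0 h and at 515, 642 and 623 CPM at 6 h (0.64, SE 0.0953, adjusted p 1.2e-04). PLK1, a mitotic kinase, was at 72.2, 89.0 and 79.8 CPM at 0 h and 108, 123 and 121 CPM at 6 h (0.55, SE 0.0736, adjusted p 3.5e-05). FOXM1, which drives genes of G2/M, was higher by 0.47 (adjusted p 3.8e-05, fractional counts in 6 of 6 libraries). In these genes the groups did not overlap. In RNA from whole cultures, a change in the share of cells in a phase and a change in RNA per cell cannot be told apart.

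Over the libraries, the median deviation of the mitosis genes from the 0 h mean was 0.25, 0.29 and 0.27 at 6 h and between -0.02 and 0.02 at 0 h. For the S phase genes it was -0.22, -0.19 and -0.16 at 6 h and between -0.01 and 0.02 at 0 h. All 3 libraries of 6 h thus lay apart from all 3 of 0 h for both lists, 6 h library 1 included. With 6 h libraries 2 and 3 averaged, 22 mitosis genes were called higher and 0 lower, and 18 S phase genes lower and 0 higher. The mitosis genes were also higher at 6 h than at 3 h (27 called higher, 5 lower, median 0.35). From 6 h to 12 h, 7 were called higher and 7 lower.

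**Figure D4:**
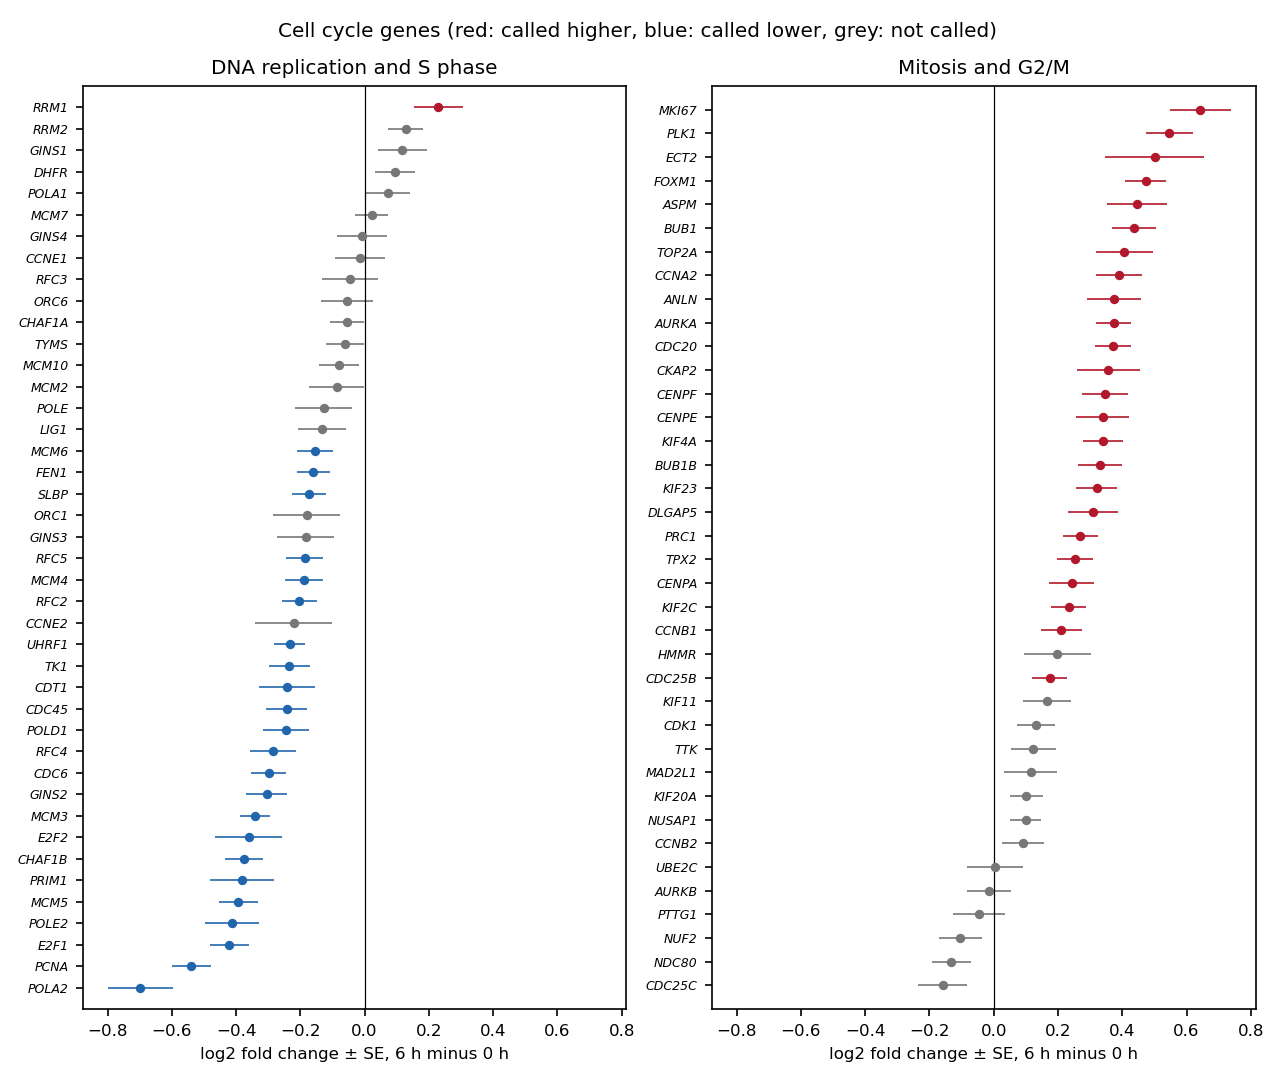
Each point is the log2 fold change of 1 gene (x axis, 6 h minus 0 h, bar ± SE), with the genes of DNA replication and S phase on the left and those of mitosis and G2/M on the right, ordered by value. Of the S phase genes 23 of 42 are blue (called lower) and 1 red (RRM1, called higher, a call lost in 6 of 20 settings), and of the mitosis genes 24 of 38 are red.

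The promoters of the 2 lists were searched for the CHR element TTTGAA, through which many G2/M genes are repressed outside their phase, on both strands. It stood in 22 of 33 (66.7%) of the mitosis genes with a promoter entry, in 1 of 37 (2.70%) of the S phase genes and in 9.52% of all tested genes with an entry. These shares describe the lists as such, which differ in sequence whatever the treatment. Windows of MKI67 (chr10:128126427-128126490, minus strand), PLK1 (chr16:23678851-23678874, plus) and ASPM (chr1:197146757-197146802, minus) show the matches in capitals, and were chosen after their values were seen. ASPM carries the match as its reverse complement.
MKI67: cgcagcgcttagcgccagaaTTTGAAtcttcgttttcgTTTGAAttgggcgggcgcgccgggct
PLK1: agcgccgcgTTTGAAttcggggag
ASPM: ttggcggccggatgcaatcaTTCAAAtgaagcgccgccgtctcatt
In MKI67 and PLK1 the last match ends 23 bases before the start site, and in ASPM 107 bases before it.

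Regulators of G1 gave 4 genes higher and 4 lower of 18, where 16.9% of all tested genes were called higher and 13.2% lower. CDK6, a kinase that promotes passage through G1, stood at 70.4, 77.4 and 78.0 CPM at 0 h and at 130.2, 169 and 161 CPM at 6 h (1.03, SE 0.0997, adjusted p 1.4e-06). CDKN1A, which encodes the CDK inhibitor p21, stood at 104, 121 and 111 CPM at 0 h and at 219, 215 and 220.3 CPM at 6 h (0.96, SE 0.0570, adjusted p 1.2e-09). The groups of both genes did not overlap, and 6 h library 1 was the lowest of its group for CDK6. CDKN1C, which encodes p57, was lower (-0.74, adjusted p 0.0024).

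Heat shock chaperone genes were called higher in 12 of 18 cases and lower in 0 (median 0.21). HSPA8, the constitutive HSC70 gene, stood at 1147, 1551 and 1497 CPM at 0 h and at 2529, 3220.2 and 3258 CPM at 6 h (1.10, SE 0.133, adjusted p 3.5e-05). In each group library 1 was the lowest, and the groups were far apart. HSPA1B was higher by 1.03 (adjusted p 5.7e-09) and HSPA1A by 0.62 (adjusted p 1.9e-06). These near-identical copies had fractional counts in 6 of 6 libraries, so that the split between them is uncertain. HSPA8 was higher at 6 h than at 3 h by 1.27 (adjusted p 1.0e-05) and lower at 12 h than at 6 h (-0.80, adjusted p 6.2e-04). In the endoplasmic reticulum, HSPA5, which encodes the chaperone BiP, was lower (-0.22, adjusted p 0.00756), and ERN1, which encodes the stress sensor IRE1α, was higher (0.77, adjusted p 7.6e-05). That list gave 6 higher and 4 lower of 21, where 16.9% of all tested genes were called higher and 13.2% lower. In the alternative settings it gave between 1 and 7 higher and between 3 and 6 lower. The counts were 1 and 4 when 6 h libraries 2 and 3 were averaged, and 2 and 4 leaving out 0 h library 1 or 6 h library 2. They were 3 and 5 leaving out 0 h library 2, and 1 and 3 leaving out 6 h library 3.

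Ribosome biogenesis factors were called higher in 13 of 30 cases and lower in 0, with a median of 0.15. UTP20, which acts on the precursor of the small subunit, stood at 50.4, 52.6 and 58.2 CPM at 0 h and at 76.3, 92.4 and 92.0 CPM at 6 h (0.69, SE 0.0990, adjusted p 7.7e-05). The RNA polymerase I subunit genes POLR1A and POLR1B were both higher by 0.47. The structural proteins of the ribosome went the other way. All 77 had a log2 fold change below 0 (median -0.24), 34 were called lower and 0 higher. That count depended on single libraries. It was 0 with 6 h libraries 2 and 3 averaged and 0 leaving out 6 h library 3, 2 leaving out 6 h library 2, 1 leaving out 0 h library 1, 17 leaving out 0 h library 2, 55 leaving out 6 h library 1, and 60 with upper-quartile scaling or in the fit of these 6 libraries alone. The median stayed between -0.31 and -0.20 in the 20 settings. Against 3 h, 72 of the 77 were called lower at 6 h and 0 higher (median -0.50), where 20.3% of all tested genes were called lower. By library, the median deviation of these genes was 0.07, -0.01 and -0.05 at 0 h and -0.11, -0.31 and -0.33 at 6 h, and the genes are short (median transcript length 671 bases against 1035 over all tested genes). The part of length in this result was not tested beyond the fit with length and GC offsets, in which 36 were called lower.

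The 80 nuclear genes of the respiratory chain gave 31 lower and 1 higher (median -0.22). The counts were 10 and 0 with 6 h libraries 2 and 3 averaged, 9 and 0 leaving out 0 h library 1, 9 and 0 leaving out 6 h library 3, 10 and 0 leaving out 6 h library 2, 48 and 1 leaving out 6 h library 1, 53 and 1 in the fit of these 6 libraries alone, and 57 and 0 with upper-quartile scaling. NDUFA8, a subunit of complex I, was lower (-0.41, SE 0.0804, adjusted p 0.00113). Of the 13 protein-coding genes of the mitochondrial genome, 7 were called lower and 0 higher (median -0.63), with 2 called lower in the averaged fit, in the fit of these 6 libraries alone, and leaving out 0 h library 1, 6 h library 2 or 6 h library 3, and 13 without a filter on low counts. MT-CO2, which encodes subunit 2 of cytochrome c oxidase, stood at 11223, 7972 and 9001 CPM at 0 h and at 6513, 4654 and 4705 CPM at 6 h (-0.83, SE 0.155, adjusted p 0.00136). Its groups did not overlap, and 0 h library 1 stood well above the other 0 h libraries. Against 3 h, 59 of the 80 nuclear genes were called lower at 6 h and 3 higher (median -0.41). All 13 mitochondrial genes were called lower in that comparison (median -0.99).

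**Figure D5:**
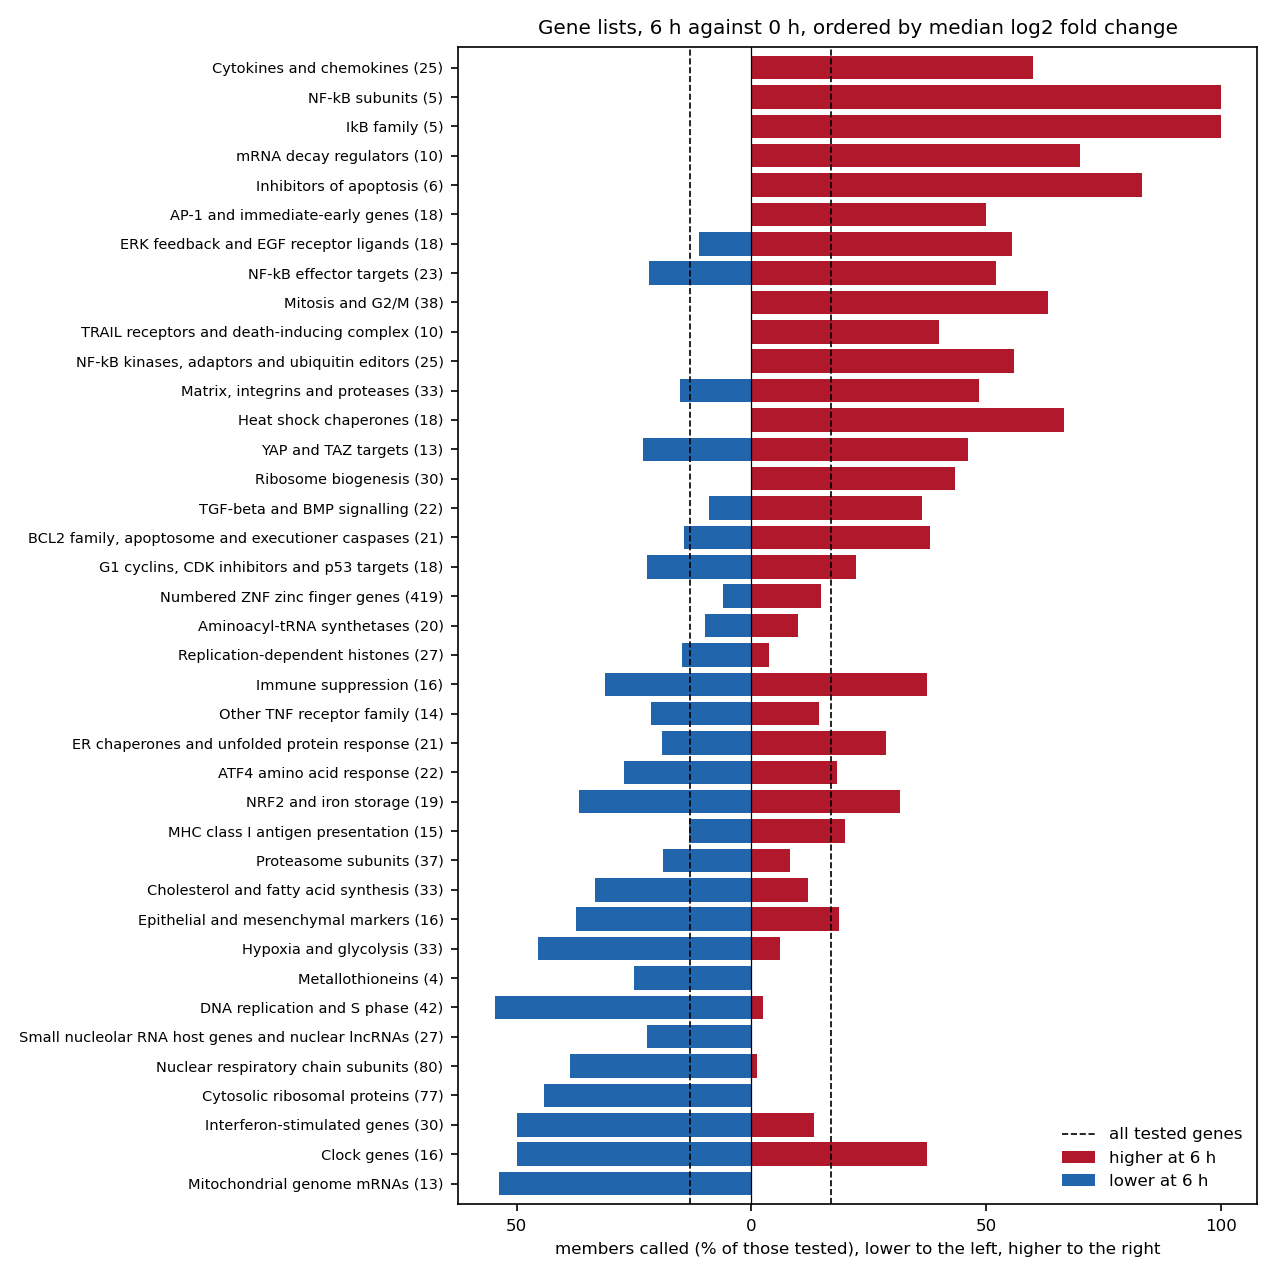
For each of the 39 gene lists (number of genes tested in brackets), the bars give the percentage of members called higher (red, to the right) and lower (blue, to the left) at 6 h, ordered by median log2 fold change. The dashed lines are the shares over all tested genes, 16.9% higher and 13.2% lower; the cytokines (1.00), NF-κB subunits (0.99) and IκB family (0.49) have the highest medians, and the clock genes (-0.53) and the mitochondrial genome (-0.63) the lowest.

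Genes of the circadian clock were called in 14 of 16 cases, 6 higher and 8 lower (median -0.53). NR1D1, which encodes the repressor REV-ERBα, stood at 14.6, 17.1 and 15.5 CPM at 0 h and at 6.57, 5.77 and 5.34 CPM at 6 h (-1.42, SE 0.133, adjusted p 5.4e-07). TEF, a transcription factor of the PAR bZIP family that the clock drives, was at 11.7, 12.8 and 12.9 CPM at 0 h and 4.23, 4.44 and 4.42 CPM at 6 h (-1.51, SE 0.112, adjusted p 2.6e-08). DBP, of the same family, was lower by a similar measure (-1.57, adjusted p 4.9e-06). ARNTL, which encodes the activator BMAL1 and is repressed by REV-ERBα, was higher, at 2.24, 3.30 and 4.05 CPM at 0 h and 5.88, 6.90 and 7.61 CPM at 6 h (1.09, SE 0.186, adjusted p 3.2e-04). All 4 genes were separated between the groups, and the counts of NR1D1 and DBP were fractional in 6 of 6 libraries. Between 6 h and 12 h, NR1D1 (1.94, adjusted p 6.4e-09), TEF (1.33, adjusted p 2.1e-07) and DBP (1.51, adjusted p 9.9e-06) were higher again, while ARNTL gave 0.27 (adjusted p 0.258). Without cells kept for 6 h without TRAIL, a response to the ligand and the hour of sampling cannot be told apart for these genes.

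Hypoxia and glycolysis genes were called lower in 15 of 33 cases and higher in 2 (median -0.15). NDRG1, which hypoxia induces, stood at 140.2, 181 and 182 CPM at 0 h and at 73.7, 86.3 and 83.6 CPM at 6 h (-1.05, SE 0.0987, adjusted p 9.7e-07). EGLN3, a prolyl hydroxylase gene of the oxygen sensor, gave -0.86 (adjusted p 1.2e-05) and CA9, a carbonic anhydrase gene, -0.60 (adjusted p 2.2e-04). MIR210HG, the host gene of the hypoxia-induced miR-210, stood at 14.3, 13.1 and 13.8 CPM at 0 h and at 5.75, 5.04 and 5.18 CPM at 6 h (-1.36, SE 0.123, adjusted p 2.9e-07). Each of these 4 was below its 0 h values in every 6 h library. From 6 h to 12 h, NDRG1 (0.85, adjusted p 1.3e-05) and EGLN3 (0.86, adjusted p 1.2e-05) were higher again. Against 3 h, 15 members were called higher at 6 h and 6 lower, PFKFB4 among the higher (0.70, adjusted p 1.3e-04), although it was below its 0 h level (-0.70, adjusted p 5.8e-05, fractional counts in 6 of 6 libraries).

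Among matrix, integrin and protease genes, 16 of 33 were called higher and 5 lower (median 0.24). The counts were 10 and 4 in each of 3 cases, with 6 h libraries 2 and 3 averaged, leaving out 6 h library 2 and leaving out 0 h library 1. THBS1, which encodes thrombospondin-1, was higher by 0.84 (adjusted p 3.0e-04, fractional counts in 6 of 6 libraries) and the collagen gene COL4A1 by 0.70 (adjusted p 2.6e-06). TIMP1 and TIMP3, inhibitors of metalloproteinases, were both lower with a log2 fold change of -0.40 (adjusted p 0.00768 and 2.9e-05). BMP4, a ligand of the TGF-β superfamily, was at 193, 181 and 190.2 CPM at 0 h and 114, 105 and 105 CPM at 6 h (-0.80, SE 0.0599, adjusted p 2.8e-08). The list of TGF-β and BMP signalling gave 8 higher and 2 lower of 22, where 16.9% of all tested genes were called higher and 13.2% lower. It gave 4 and 1 leaving out 0 h library 1. It gave 5 and 1 leaving out 6 h library 2, leaving out 6 h library 3 or with both averaged. The list of YAP and TAZ signalling gave 6 higher and 3 lower of 13 (median 0.18). The higher genes included TEAD1, which encodes the DNA-binding partner of YAP (0.59, adjusted p 0.00211), the kinase gene LATS1 (0.54, adjusted p 0.00703) and the target AXL (0.30, adjusted p 0.00353). The 3 lower genes were the targets CCN1 (-0.27), CCN2 (-0.45) and ANKRD1 (-0.44). Counts of CCN2 were fractional in 6 of 6 libraries.

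Among the 12 genes with the highest change were 2 not yet described with counts that were whole in all 6 libraries. IRAK2, a relay of interleukin-1 and Toll-like receptors, stood at 11.4, 13.6 and 14.6 CPM at 0 h and at 29.3, 29.9 and 32.4 CPM at 6 h (1.21, SE 0.104, adjusted p 1.5e-07). POU2F2, which encodes the transcription factor OCT2, was at 7.72, 7.04 and 6.78 CPM at 0 h and 17.2, 15.7 and 16.5 CPM at 6 h (1.20, SE 0.0918, adjusted p 3.3e-08). The long intergenic RNA AC092807.3 was higher by 1.14 (adjusted p 2.6e-05), with fractional counts in 6 of 6 libraries. All 3 were lifted in every 6 h library.

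PPFIBP2 (ENSG00000166387, chr11:7513298-7657127, plus strand), which encodes liprin-β2, had the lowest log2 fold change among the genes that reached 2 in average log2 CPM and had separate groups. It stood at 5.41, 5.67 and 7.84 CPM at 0 h and at 1.26, 1.26 and 1.35 CPM at 6 h (-2.28, SE 0.174, adjusted p 3.3e-08). PPFIA4, of the same liprin family, was at 15.8, 13.6 and 13.0 CPM at 0 h and 5.43, 6.10 and 4.86 CPM at 6 h (-1.38, SE 0.143, adjusted p 1.7e-06). Both liprins were low in all 3 libraries of 6 h. DHRS3, which reduces retinal, gave -1.41 (adjusted p 6.5e-06), the galectin gene LGALS12 -1.35 (adjusted p 1.1e-04) and the glucose transporter gene SLC2A12 -1.19 (adjusted p 7.3e-04, fractional counts in 6 of 6 libraries). PPL, which encodes the desmosomal protein periplakin, gave -1.34 (adjusted p 1.5e-06) and AGR2, an epithelial disulfide isomerase gene, -1.16 (adjusted p 2.6e-06). The list of epithelial and mesenchymal markers gave 3 higher and 6 lower of 16, with 1 and 4 leaving out 0 h library 1 and 3 and 3 leaving out 6 h library 3. Over all tested genes in the main fit, 16.9% were called higher and 13.2% lower. KRT19 and CLDN7, epithelial members, were both at -0.54 (adjusted p 8.1e-05 and 8.8e-05), and the mesenchymal member S100A4 was also lower (-0.50, adjusted p 0.00364). ZEB1, a mesenchymal transcription factor, was higher (0.52, adjusted p 0.00477). OSR1, a zinc finger transcription factor gene, stood at 21.3, 21.9 and 19.6 CPM at 0 h and at 11.2, 8.76 and 7.77 CPM at 6 h (-1.19, SE 0.120, adjusted p 1.2e-06). RPL17-C18orf32, a readthrough entry that shares sequence with RPL17, gave -1.27 (adjusted p 0.00524), with fractional counts in 6 of 6 libraries.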

How the data were processed

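Poly(A) RNA was sequenced as stranded paired-end libraries, per the labels' protocols. The authors deposited expected counts per gene, which the deposited table's name credits to RSEM. The submitters' processing notes name hg38, cutadapt 1.18 and STAR 2.7.0f. Which annotation was used, and whether counting used strand, is not given in the sources used here, so overlapping and antisense genes cannot be told apart. Of the values above 0, 30.6% were not whole, and expected counts were rounded. Coordinates and lengths come from GENCODE 29, which 58597 of 58870 entries matched by identifier without version.

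Genes were filtered with filterByExpr, scaled by TMM and fitted in edgeR 4.0.16 (R 4.3.3) by the robust quasi-likelihood test over all 17 libraries with time as the group, with Benjamini-Hochberg adjustment over all 15365 tested genes and a threshold of 0.05. The fit was tested on simulated data, in which each library was drawn independently with the same spread for all genes. That test does not cover the close pair of libraries at 6 h. DESeq2 1.42.0 and limma 3.58.1 (voom) were among 20 alternatives. Replicate numbers were not used to pair the samples. The text names the 12 highest and 12 lowest called genes that reached 2 in average log2 CPM and had separate groups, and up to 4 called members at each end of each of 39 gene lists. In 8 lists on NF-κB, cytokines, death and immune suppression, any member may be named. The members and lists were chosen with earlier results of these data known.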

Additional observations from a re-analysis of the deposited data

How the results depend on the processing

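Upper-quartile scaling gave 3047 lower genes and moved the median of all genes from -0.022 to -0.091 on the log2 scale. Without a filter on low counts 121 genes were higher by 2-fold. With the 6 h replicates 2 and 3 averaged there were 1668 higher, 1041 lower and 85 lower by 2-fold, and DESeq2 called 93 lower by 2-fold. Leaving out 1 library at a time gave 1635 to 2804 higher, 1028 to 2102 lower and 101 to 181 lower by 2-fold. The lowest counts were reached without the 6 h replicate 3 (1635 and 1028) and, for 2-fold lower, without the 0 h replicate 1 (101). The cause was not tested.

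The medians of several lists near 0 changed sign in some setting. MHC class I went to 0.0080 with length and GC offsets and to 0.0076 with the replicate block added. Upper-quartile scaling took G1 regulators to -0.013, aminoacyl-tRNA synthetases to -0.025, numbered ZNF genes to -0.030, immune suppression to -0.05 and replication-dependent histones to -0.03. The histones were also below 0 with a mean count of at least 10 (-0.02), in the fit of the 6 libraries alone (-0.04), leaving out 6 h library 1 (-0.07) and leaving out 6 h library 3 (-0.15), and ER chaperones were at 0.01 leaving out 0 h library 3. A replicate block gave 2647 higher and 2043 lower genes. Same-numbered 0 h and 6 h libraries correlated in their deviations at 0.18, 0.04 and 0.11 for numbers 1, 2 and 3. The pairs with unlike numbers lay between -0.14 and 0.05. The 6 h replicate 2 correlated best with the 0 h replicate 3 (0.05), and the numbers were not used as pairs. On the second principal component of the 6 libraries (16.7% of the variance), replicate 1 stood at 18 (0 h) and 22.8 (6 h). The other libraries lay between -16.1 and -4 on it. Whether the numbers mark a batch was not tested. Of 261 called genes among the 304 that could be named, 167 were called in all 20 settings, and 0 of the 261 changed sign. A change of sign in a gene called in neither fit was not counted. Genes under about 1 CPM rest on few counts, which limits TNF, LTB and IL1A.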

Other observations

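Over all tested genes, 16.9% were called higher and 13.2% lower. Of 33 genes of cholesterol and fatty acid synthesis, 11 were called lower and 4 higher (median -0.09). The counts were 5 and 3 with 6 h libraries 2 and 3 averaged, 7 and 2 leaving out 0 h library 1, 7 and 4 leaving out 0 h library 2, 6 and 3 leaving out 6 h library 2, 4 and 2 leaving out 6 h library 3, and 17 and 4 with upper-quartile scaling. Of 19 genes of the NRF2 response and iron storage, 7 were called lower and 6 higher. The lower calls numbered 1 with those libraries averaged, 1 leaving out 6 h library 3, and 2 leaving out 0 h library 1 or leaving out 6 h library 2, with 5 higher in each case. Of 22 genes of the ATF4 amino acid response, 6 were lower and 4 higher. Among 419 numbered ZNF zinc finger genes, 62 were called higher and 25 lower (median 0.04). They numbered 34 and 12 with 6 h libraries 2 and 3 averaged, 35 and 12 leaving out 0 h library 1, 35 and 10 leaving out 6 h library 2, 30 and 13 leaving out 6 h library 3, and 39 and 41 with upper-quartile scaling.

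Of 2486 tested genes not annotated as protein coding, 58 (2.33%) were called higher and 235 (9.45%) lower, and 31 and 89 with 6 h libraries 2 and 3 averaged. This class takes in every other gene type and entries without a type. Among 12879 coding genes the shares were 19.8% and 13.9%. The median average log2 CPM was 0.51 for the genes not annotated as coding and 4.78 for coding genes. The difference between the classes, and the part of level in it, was not tested.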
